A study of Mus musculus with 30 samples.

Results

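The nuclear genes of the mitochondrial respiratory chain were followed in mouse aorta through a model of abdominal aortic aneurysm in B cell-deficient (uMT) and wild-type (WT) mice. Members were all gene names on the array that begin with Nduf, Uqcr, Sdh, Atp5, Cox4, Cox5, Cox6, Cox7 or Cox8, without the brown-fat genes Cox7a1 and Cox8b. The rule gave 90 of 34728 gene names, on 134 of 55657 probes. Of these, 88 genes (132 probes) were measured well above background on all 3 arrays of at least 1 group, as were 23268 gene names in all. The other two, Cox7b2 and Cox8c, are isoforms known from testis, and they are not described further.

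The 30 one-colour arrays formed 10 groups of 3. For each genotype, uMT and WT on strain C57BL/6, aortas were taken 7 or 42 days after 0.5 M CaCl2 was applied around the aorta, 7 or 42 days after a sham operation with physiological saline, and before any operation (pre). CaCl2 laid on the outside of the vessel is a chemical injury that is followed by dilatation, and the uMT mutation stops B cell development in the whole animal rather than in the vessel alone. The labels give no age or sex, call the tissue aneurysm in all groups including pre, and do not state that the 3 arrays of a group came from separate animals, so the p-values below measure only the spread between these arrays.

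The respiratory chain moves electrons from NADH through complex I, or from succinate through complex II, to ubiquinone, then through complex III and cytochrome c to complex IV, where oxygen is reduced. Complexes I, III and IV pump protons, and complex V, the ATP synthase, uses the gradient to make ATP. Most subunits are encoded in the nucleus, and contractile smooth muscle of the aortic wall also draws much of its energy from glycolysis. The measured genes were 36 subunits and 4 assembly factors of complex I (Nduf), 4 subunits and 2 assembly factors of complex II (Sdh), 8 of complex III (Uqcr), 15 of complex IV (Cox and Ndufa4) and 15 of complex V (Atp5). The last 4 carry a matching name but are not counted with a complex here: Ndufa4l2, Cox4nb (Emc8), Atp5s (Dmac2l) and Atp5sl (Dmac2).

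Each level is log2 of the array's processed signal minus log2 of that array's 75th percentile, so 0 is the level of a fairly bright probe. Levels of different genes were not set against each other, since each comes from a different probe. Between 42.4% and 61.8% of probes lay well above background on 29 arrays, but on replicate 2 of WT sham day 42 only 36.6% did. That array alone was on its slide and scan day, and it correlated with the other two of its group at a mean r of 0.72. It is called the dim array, and counts of members called are also given without it where that changed them. It enlarges the spread that all comparisons share, so counts without it also differ where its group is not compared. As a check of the genotype labels, the B cell gene Ms4a1 was detected above background on 0 of 15 uMT arrays and 12 of 15 WT arrays. Cd79a and Cd79b, which encode parts of the B cell receptor, were detected in both genotypes, at a median level of -2.71 and -1.13 over the uMT arrays, against -1.80 and 0.29 over the WT arrays. The markers of contractile smooth muscle had a median level between 2.84 and 7.05 over the arrays, so the tissue carried the RNA of the vessel wall.

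The 88 genes were highest in unoperated uMT aortas. Their median level was 4.58, 4.27 and 4.63 on the uMT sham day 42 arrays, and 5.86, 5.83 and 5.21 on the uMT pre arrays. On the uMT sham day 7 arrays it was 5.05, 4.99 and 4.78. Both sham groups of uMT mice lay wholly below the uMT pre group. It was 4.70, 4.58 and 4.64 on uMT CaCl2 day 7 arrays and 4.29, 4.28 and 4.54 on uMT CaCl2 day 42 arrays. In WT aortas the groups were closer together: 4.58, 4.67 and 4.82 with CaCl2 at day 7, 4.70, 4.65 and 5.35 with CaCl2 at day 42, 4.79, 4.91 and 4.92 with sham at day 7, 5.35, 2.98 and 5.31 with sham at day 42, and 5.09, 4.93 and 4.77 before operation. The value of 2.98 is that of the dim array. Within groups the pooled SD of this median was 0.48, most of it from that array.

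**Figure D1:**
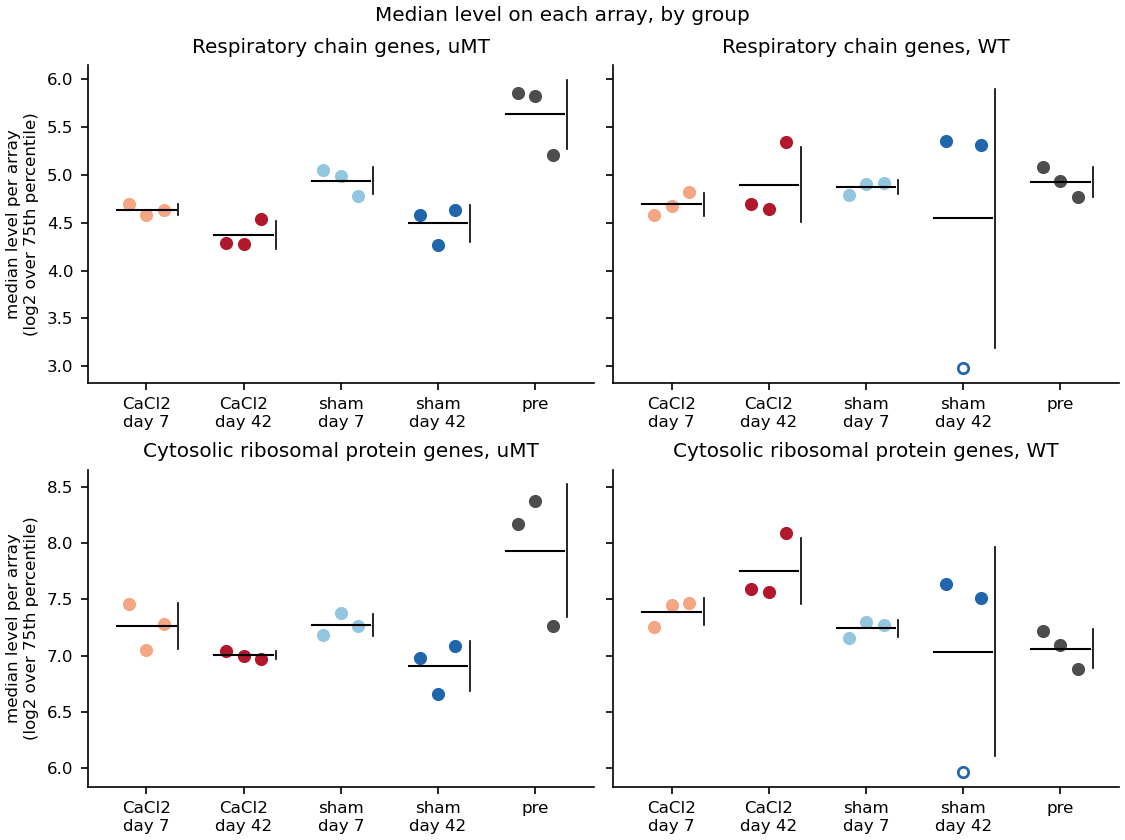
Median log2 level of the 88 respiratory chain genes (upper row) and of the cytosolic ribosomal protein genes (lower row) on each array, relative to the array's 75th percentile, in uMT (left) and WT (right) aortas. Points are arrays, the line is the mean and the bar beside it ± SD of 3 arrays, and the open point is the dim array, at 2.98 for the respiratory chain genes; the uMT pre arrays reach 5.86 in the upper row and 8.37 in the lower row.

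The promoters of respiratory chain genes are known for sites of NRF1, a factor that activates many nuclear genes of the mitochondrion, and of ETS factors such as GABP (NRF2). RefSeq promoters (build GRCm38.p6, 250 bases before to 50 after a gene's start) were matched for 74 of the 90 members, with 80 promoters in all. The 4 stretches below show where such letters lie in genes that fell in uMT mice at day 42, each 120 bases that end just before a start site (Ndufa5 has a further promoter in the table), 5′ to 3′ on the gene's strand, with the motif in capitals. The first 3 hold an NRF1 match and the last an ETS match. They belong to subunits of complex I (Ndufa5, Ndufs6) and complex V (Atp5k, Atp5e).
Ndufa5, chr6:24527691-24527810, minus strand: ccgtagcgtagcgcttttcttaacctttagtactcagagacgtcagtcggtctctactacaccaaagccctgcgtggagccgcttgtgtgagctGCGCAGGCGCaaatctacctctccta
Ndufs6, chr13:73328483-73328602, minus strand: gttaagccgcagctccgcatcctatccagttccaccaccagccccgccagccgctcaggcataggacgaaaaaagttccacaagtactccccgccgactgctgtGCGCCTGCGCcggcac
Atp5k, chr5:108434400-108434519, minus strand: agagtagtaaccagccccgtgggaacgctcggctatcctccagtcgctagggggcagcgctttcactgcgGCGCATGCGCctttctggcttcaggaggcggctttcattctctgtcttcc
Atp5e, chr2:174464102-174464221, minus strand: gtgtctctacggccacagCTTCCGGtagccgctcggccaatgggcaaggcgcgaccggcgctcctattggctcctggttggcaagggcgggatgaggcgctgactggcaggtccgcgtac

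Matches were searched on both strands of each 300-base window. The NRF1 letters, GCGC, any base and TGCGC, stood in the promoters of 18 of 74 members (24.3%), against 7.17% of 17491 protein-coding genes. The ETS letters CCGGAAG stood in 19 of 74 (25.7%), against 12.9%, the YY1 letters AAGATGGCG in 8 of 74 (10.8%), against 2.14%, and the ERR letters TCAAGGTCA in 2 of 74 (2.70%), against 0.377%. In all, 39 of the 74 held at least 1 of the 4, and in 0 member promoters did hits of different motifs overlap. Median GC content was 58.8% in member promoters and 56.3% in all. Members that fell in uMT mice at day 42 held the NRF1 letters in 9 of 35 promoters and the other measured members in 9 of 38. For ETS the counts were 9 of 35 and 10 of 38.

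Of the comparisons fitted with all arrays, the largest median change of the respiratory chain genes was in sham-operated uMT mice relative to pre. The CaCl2 groups were not compared with pre, and the member medians of the uMT CaCl2 arrays also lay wholly below those of uMT pre. At day 42 after sham operation 42 of the 88 genes were lower than before operation and 0 were higher (limma, Benjamini-Hochberg adjusted over all 23268 genes, threshold 0.05), where 10.1% of all genes were lower, 7.29% higher and 17.4% changed in either direction. The sign was negative in 85 of 88, and the median log2 change was -1.04, against -0.06 over all genes. In 69 genes the 3 sham day 42 arrays lay wholly below the 3 pre arrays, as did 24.3% of all genes. The size rests on the scaling: with quantile normalization the median was -0.53 and 15 genes fell. The count rests on single arrays too, with 79 genes called without the dim array, where 24.6% of all genes were lower and 40.3% called, 11 without replicate 1 of uMT pre, 19 without its replicate 2 and 10 without replicate 2 of uMT sham day 42. Replicate 1 of uMT pre was on another slide than the remaining arrays of both groups, and within that slide 20 fell, with a median of -0.93, where 6.09% of all genes were called.

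Complexes I, III, IV and V all had members that fell. Of complex I, 17 of 36 subunits fell, with a median of -1.1, and 1 of 4 assembly factors. In complex III 4 of 8 fell (median -0.95), in complex IV 9 of 15 (median -1.17) and in complex V 10 of 15 (median -1.04). None of the 4 subunits of complex II (median -0.67) or its 2 assembly factors (median -0.91) passed the test. Complex II is also part of the citric acid cycle, and whether its change differed from that of the other complexes was not tested.

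**Figure D2:**
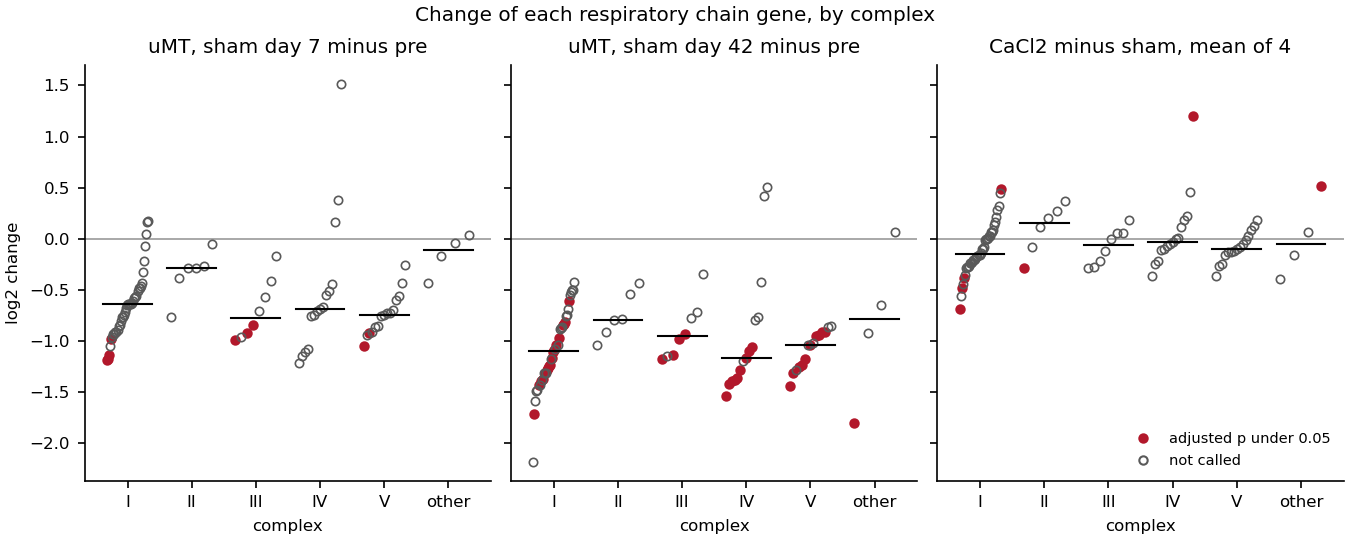
Log2 change of each of the 88 genes by complex (subunits and assembly factors together), for uMT sham day 7 minus pre, uMT sham day 42 minus pre, and CaCl2 minus sham as the mean of the 4 contrasts. Points are genes in order of change, filled red where the adjusted p is under 0.05, and lines are medians; in the middle panel the filled points all lie below 0, while in the right panel Cox6a2 stands apart at 1.20.

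The smallest adjusted p belonged to Uqcr10, a small subunit of complex III (RefSeq gene at chr11:4701968-4704344 on GRCm38.p6; its probe is annotated at chr11:4601979-4602038 on mm9). Its level was 5.21, 5.04 and 5.28 on uMT sham day 42 arrays, against 6.57, 6.70 and 5.79 on uMT pre arrays. The groups did not overlap, and replicate 3 of uMT pre was the nearest to the sham arrays. The change was -1.18 ± 0.22 (SE, n = 3 each; limma adjusted p = 0.00198), and -1.18 with an adjusted p of 0.000107 without the dim array. In WT mice Uqcr10 stood at 5.98, 5.52 and 5.93 on sham day 42 arrays, against 5.78, 5.56 and 5.56 on pre arrays, which overlap.

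Cox7a2l, counted here with complex IV, was at 6.02, 5.71 and 5.83 on uMT sham day 42 arrays, against 7.20, 7.23 and 6.63 on uMT pre arrays. It fell by 1.17 ± 0.22 on the log2 scale (SE; limma adjusted p = 0.00219), again with no overlap. Ndufa5, a subunit of the arm of complex I in the matrix whose promoter is shown above, was at 5.49, 5.34 and 5.64 on uMT sham day 42 arrays, against 6.88, 7.00 and 6.09 on uMT pre arrays. Its change was -1.17 ± 0.22 (SE; limma adjusted p = 0.00252). Ndufs6, a zinc-binding subunit of the same arm, was at 5.33, 5.12 and 5.87 on uMT sham day 42 arrays, against 6.87, 6.96 and 5.79 on uMT pre arrays. It fell by 1.1 ± 0.25 (SE; limma adjusted p = 0.00673), but here replicate 3 of pre lay below replicate 3 of sham. Replicate 3 was the lowest of the uMT pre arrays in 76 of the 88 members.

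Among the 10 subunits that carry or frame the catalytic centres, all had a negative change and 3 passed the test. Cox4i1, the common form of a core-associated subunit of complex IV, was at 6.08, 6.01 and 6.32 on uMT sham day 42 arrays, against 7.46, 7.56 and 6.68 on uMT pre arrays, and fell by 1.1 ± 0.33 (SE; limma adjusted p = 0.027). Cox5a, also of complex IV, fell by 1.36 ± 0.39 (SE; limma adjusted p = 0.021). Atp5a1, the alpha subunit of the catalytic head of ATP synthase, was at 5.61, 5.0 and 5.47 on uMT sham day 42 arrays, against 6.33, 6.25 and 6.22 on uMT pre arrays, and fell by 0.91 ± 0.31 (SE; limma adjusted p = 0.046). Its partner Atp5b, the beta subunit, changed by -0.86 with an adjusted p of 0.104. The NADH-binding subunit Ndufv1 (-0.55, adjusted p = 0.105), the iron-sulphur subunit Ndufs1 (-0.50, 0.45), the flavoprotein Sdha (-0.54, 0.20) and the iron-sulphur subunit Sdhb (-0.91, 0.27) did not pass. Nor did Uqcrc1, a core protein of complex III (-0.72, 0.21), or the Rieske protein Uqcrfs1 (-1.15, 0.21). All 10 passed without the dim array.

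Isoforms of one subunit differed in whether they passed. Cox6b1, the common form, was at 2.31, 2.05 and 2.0 on uMT sham day 42 arrays, against 3.73, 3.74 and 3.01 on uMT pre arrays, and fell by 1.37 ± 0.30 (SE; limma adjusted p = 0.0054). Its testis form Cox6b2 changed by -0.42 and did not pass. Cox4i2, the lung and low-oxygen form of Cox4, changed by 0.51 (limma adjusted p = 0.34), while Cox4i1 fell. Cox6a1 changed by -1.19 (limma adjusted p = 0.15), and the heart and muscle form Cox6a2 by 0.42 (0.58). Cox7a2 fell by 1.28, together with Cox7a2l. Ndufa4, a complex IV subunit despite its name, fell by 1.39 ± 0.32 (SE; limma adjusted p = 0.0068), and its paralog Ndufa4l2, known as a target of the hypoxia factor HIF-1, by 1.80 ± 0.38 (SE; limma adjusted p = 0.00422). Whether 2 isoforms differed from each other was not tested. Cox8a changed by -0.80 (limma adjusted p = 0.17).

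Further members named for their size after their values were seen were Ndufb2, which fell by 1.37, Uqcrq by 1.13 and Atp5k by 0.94. Ndufs8, an iron-sulphur subunit of complex I, had the lowest change of all at -2.18 ± 0.88 (SE) and did not pass (limma adjusted p = 0.085). It read -3.24 on the dim array.

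At day 7 after sham operation 9 genes were already lower in uMT mice and 0 higher, where 1.05% of all genes were lower, 1.49% higher and 2.54% changed in either direction. The median change was -0.67, against -0.07 over all genes, with 81 of 88 negative and 56 wholly below pre, as were 17.6% of all genes. They were 4 subunits of complex I (Ndufa5, Ndufs6, Ndufb10, Ndufc1), 3 of complex III (Uqcrq, Uqcr11, Uqcr10) and 2 of complex V (Atp5j2, Atp5k). Ndufa5 was at 5.59, 5.51 and 5.30 on uMT sham day 7 arrays, against the uMT pre levels above, a change of -1.19 (limma adjusted p = 0.00718). Ndufs6 was at 5.46, 5.39 and 5.24 and changed by -1.18 (limma adjusted p = 0.0162). None of complex II or IV passed. Without the dim array 52 genes fell and 1 rose, where 7.5% of all genes fell and 12.9% changed. Leaving out replicate 1 or replicate 2 of uMT pre gave 0, its replicate 3 gave 19, and any 1 of the sham day 7 arrays gave 1 or 2. Within the slide that holds 2 of the pre arrays 0 passed, with a median of -0.54. With only these 2 groups in the fit, 0 were called. The day 7 and day 42 comparisons share the uMT pre arrays.

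In WT mice few members passed after sham operation. At day 7, 1 member rose and 0 fell, where 2.29% of all genes rose, 0.0731% fell and 2.37% were called, and the median change was -0.06. At day 42, 0 of 88 passed at the adjusted threshold and 4 had an unadjusted p under 0.05, where limma called 0.168% of all genes. The median was then -0.38 and turned to 0.27 without the dim array, still with 0 called. With the dim array as 1 of only 2 in its group, 13 members were called (without replicate 1) or 18 (without replicate 3). The smallest p at day 42 was that of Cox4nb, which changed by -1.16 (limma adjusted p = 0.196). That value rests on single arrays: it was -0.26 (0.78) without the dim array, and -1.65 (0.0387) without replicate 1 and -1.58 (0.0251) without replicate 3 of WT sham day 42.

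The difference between genotypes in that change was tested itself, in comparisons added after the medians were seen. At day 42, 8 of 88 genes had a more negative change in uMT than in WT and 0 a more positive one, where 2.84% of all genes were lower, 2.35% higher and 5.19% called, and the median difference was -0.62 against -0.07 over all genes. They were the complex I subunits Ndufa2, Ndufa5 and Ndufs6, the complex III subunits Uqcr10 and Uqcrq, Cox7a2l, and the complex V subunits Atp5e and Atp5k. Ndufa5 differed by -1.55 (limma adjusted p = 0.0108). At day 7, 0 passed (0% of all genes by limma), with a median of -0.63 and 83 of 88 negative. With the dim array left out 75 passed at day 42, all more negative in uMT, with a median of -1.30, where 18.4% of all genes were lower and 29.4% called. The day 42 count ran from 0 to 76 over 13 other settings and from 1 to 75 on leaving out 1 array.

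The uMT and WT groups were also set against each other within each condition, likewise after the medians were seen. In every condition the uMT arrays were on other slides than the WT arrays, so within a condition slide and genotype cannot be told apart. With all arrays in the fit, a fixed slide block could be fitted before operation and after sham operation, but not after CaCl2. Over 13 other settings, that block among them, 0 to 51 members were called before operation. After sham operation these settings called 0 at day 7 and 0 to 64 at day 42. Before operation 0 of 88 genes passed (limma called 0.0903% of all genes, and 30 members had an unadjusted p under 0.05). The change was positive in 85, with a median of 0.63 against 0.10 over all genes, and in 59 every uMT array lay above every WT array, as in 17.5% of all genes. Without the dim array 38 members were higher in uMT, where 5.52% of all genes were higher and 6.87% called. Ndufa5 had the smallest p at 0.88 (limma adjusted p = 0.119). At day 7, 0 members differed after sham operation and 0 after CaCl2, with medians of 0.00 and -0.01, where limma called 0.0172% and 0.219% of all genes.

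At day 42 after sham operation 0 members passed, with a median of -0.08, where 4.13% of all genes were called. With that array left out 59 were lower in uMT, with a median of -0.70, where 18.7% of all genes were lower and 33.3% called. At day 42 after CaCl2 0 passed and 11 had an unadjusted p under 0.05, where 1.31% of all genes were called. There 86 of 88 changes were negative, with a median of -0.47 against -0.05, and 58 genes lay wholly below WT, as did 21.6% of all genes. Atp5o, the stalk subunit of ATP synthase, came nearest at -1.09 (limma adjusted p = 0.0935), and without the dim array 29 were lower, where 10.7% of all genes were lower and 15.4% called. Over the mean of the 5 conditions 0 members passed (2.97% of all genes; 2 members with an unadjusted p under 0.05), with a median of 0.01, and Cox6b2 had the smallest p at 0.42 (limma adjusted p = 0.164). Leaving out the dim array, the mean of conditions gave 22 lower and 2 higher in uMT, where 13.4% of all genes were lower and 25.9% called.

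CaCl2 changed few members relative to sham. Averaged over both genotypes and days, 4 were lower and 3 higher, where 12.2% of all genes were lower and 14.9% higher, a total of 27.1%. The median was -0.08 against 0.02 over all genes. Without the dim array 41 were lower and 2 higher, with 74 of 88 changes negative and a median of -0.23, where 21.5% of all genes were lower and 45% changed in either direction. Of these 41, 23 were of complex I, 2 of complex II, 4 of complex III, 2 of complex IV, 8 of complex V and 2 of the other genes. With all arrays and the slide as a random block 0 were called, and without the dim array 51. Leaving out replicate 2 of WT CaCl2 day 42 or replicate 1 of uMT CaCl2 day 42 gave 3, and leaving out replicate 1 or 2 of WT sham day 7, or replicate 1 of uMT sham day 7 or uMT CaCl2 day 7, gave 4. In uMT mice the CaCl2 arrays were all on one slide and the sham arrays on another, so there slide and CaCl2 cannot be told apart. Those of WT at day 7 were split in the same way. For that contrast, though, a fixed slide block could be fitted with all arrays in the fit.

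Ndufv1, which holds the site where complex I takes electrons from NADH, was lower with CaCl2 at both days in uMT mice and at day 7 in WT mice. It was at 4.70, 4.96 and 4.80 on uMT CaCl2 day 7 arrays, against 5.36, 5.13 and 5.17 on uMT sham day 7 arrays. At day 42 it was at 4.43, 4.58 and 4.98 with CaCl2 and at 5.10, 4.99 and 5.23 with sham. WT mice had 4.84, 4.61 and 4.82 with CaCl2 and 5.38, 5.37 and 5.22 with sham at day 7. In these 3 pairs no CaCl2 array reached the lowest sham array, but with all arrays none of the 3 contrasts passed the test for Ndufv1. At day 42 in WT mice it was at 5.06, 4.81 and 5.18 with CaCl2 and at 5.40, 4.42 and 5.56 with sham, where 4.42 is the dim array. The mean change was -0.38 ± 0.12 (SE, 12 arrays each; limma adjusted p = 0.0173), and -0.47 with an adjusted p of 9.62e-05 without the dim array.

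Ndufaf3, an assembly factor of complex I, had the largest fall of the 4. It was at 0.01, 0.36 and 0.14 on uMT CaCl2 day 7 arrays, against 1.26, 1.08 and 1.01 on uMT sham day 7 arrays, and at 0.10, -0.24 and 0.30 on WT CaCl2 day 7 arrays, against 1.24, 1.31 and 0.90 on WT sham day 7 arrays. These pairs did not overlap, but with all arrays neither day 7 contrast passed the test. At day 42 the uMT change was -0.76 and did not pass with all arrays (limma adjusted p = 0.0284 without the dim array). In WT mice at day 42 there was no fall with all arrays, and a change of -0.88 (limma adjusted p = 0.0292) without the dim array. The mean change over the 4 contrasts was -0.69 ± 0.23 (SE; limma adjusted p = 0.0258), and -0.92 with an adjusted p of 3.67e-06 without the dim array. The complex I subunit Ndufb2 fell by 0.48 ± 0.16 (SE; limma adjusted p = 0.0255), or by 0.61 (0.000135) without the dim array, and just missed without replicate 2 of WT CaCl2 day 42 (0.0502). The membrane anchor of complex II, Sdhc, fell by 0.28 ± 0.10 (SE; limma adjusted p = 0.0476), or by 0.25 (0.0326) without the dim array.

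**Figure D3:**
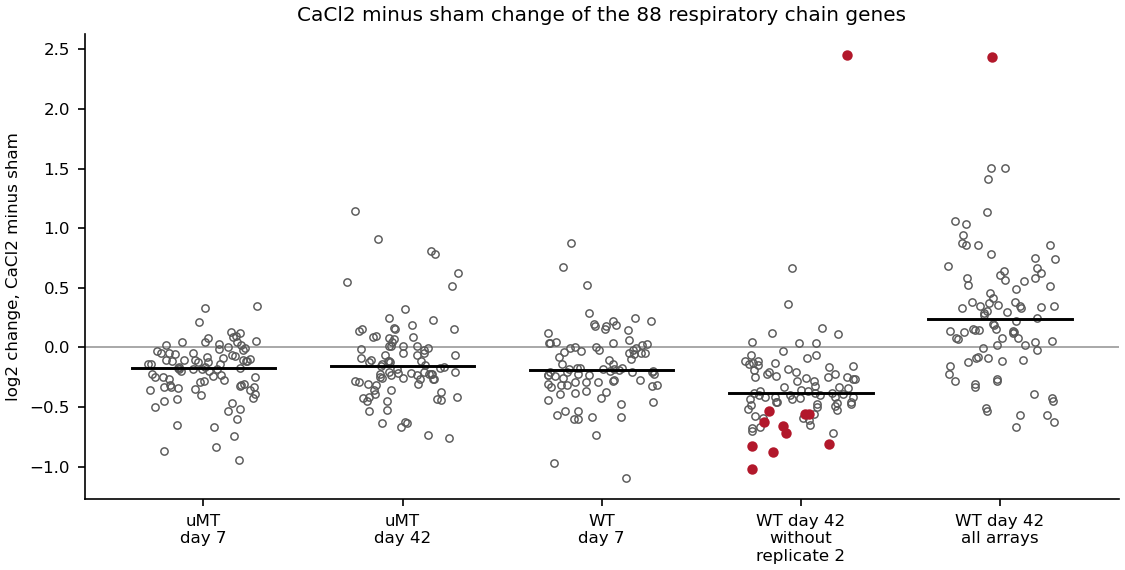
Log2 change with CaCl2 relative to sham for each of the 88 genes in uMT at day 7, uMT at day 42, WT at day 7, WT at day 42 without the dim array, and WT at day 42 with all arrays. Points are genes, spread sideways at random, and lines are medians; the median is -0.38 without the dim array and 0.24 with it in WT at day 42.

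In single contrasts, fewer genes passed. In uMT mice 0 members passed at day 7 (0.894% of all genes; 2 members with an unadjusted p under 0.05) and 0 at day 42 (6.33% of all genes; 5 members). Their medians were -0.17 and -0.16, and the smallest p belonged to Ndufa10 at day 7 (-0.74, limma adjusted p = 0.287) and Ndufa4l2 at day 42 (0.91, limma adjusted p = 0.172). In WT mice 0 passed at day 7 (6.59% of all genes; 2 members with an unadjusted p under 0.05), with a median of -0.19 and 40 genes wholly below sham, as were 21.6% of all genes. With only these 2 groups in the fit 12 were lower and 2 higher. At day 42 in WT mice 1 member rose and 0 fell, where 6.79% of all genes rose, 3.59% fell and 10.4% were called, and the median was 0.24. That sign turned without the dim array, where the median was -0.38, 10 were lower and 1 higher, and 5.12% of all genes were lower and 12.3% called. With the dim array as 1 of only 2 sham arrays, 13 members (without replicate 1) or 12 (without replicate 3) were higher and 0 lower. The lower ones without the dim array included Atp5b (-0.83) and Ndufa11, a membrane subunit of complex I (-1.02). Without the dim array 5 members each were lower in uMT at day 7 (4.93% of all genes lower, 9.82% called) and day 42 (6.15% lower, 15% called), and 7 in WT at day 7 (9.09% lower, 18.4% called).

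The uMT response to CaCl2 was not shown to differ from the WT response in any member. The interaction called 0 members at day 7 (0% of all genes by limma; 0 with an unadjusted p under 0.05) and 0 at day 42 (0.107% of all genes; 1 member). The median difference was -0.06 at day 7, and at day 42 it was -0.41, turning to 0.22 without the dim array. Between days 42 and 7 of CaCl2, 0 members passed in uMT (0.971% of all genes; 3 members with an unadjusted p under 0.05) and 0 in WT (0.55% of all genes; 1 member). In uMT 85 of 88 changes were negative with a median of -0.33, and in 44 genes the day 42 arrays lay wholly below day 7, as in 15.6% of all genes. Leaving out the dim array, 2 members were lower and 1 higher, where 4.41% of all genes were lower and 8.27% called.

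Cox6a2, the heart and skeletal muscle form of a complex IV subunit, had the largest positive change of the members over the 4 contrasts, where 53 of 88 changes were negative. In WT mice at day 42 it was the 1 member called with all arrays, where 64 of 88 changes were positive. It was at -0.61, -0.76 and -0.20 on WT CaCl2 day 42 arrays, against -3.45, -2.92 and -2.50 on WT sham day 42 arrays, of which 2 were well above background. The groups stood far apart, at a change of 2.44 ± 0.49 (SE, n = 3 each; limma adjusted p = 0.00281), and 2.45 (0.00753) without the dim array. The call was lost with the slide as a random block (2.07, limma adjusted p = 0.0534) or a fixed block (1.98, 0.115) and with the compared groups only (0.239). The size depends on the background correction, as normexp gave 1.24 (limma adjusted p = 0.009). In uMT mice at day 42 it was at -1.03, -1.42 and -1.93 with CaCl2, against -2.30, -2.67 and -2.83 with sham, again without overlap. At day 7 it was at 0.68, -1.84 and -2.32 on uMT CaCl2 arrays, against -1.52, -1.28 and -1.73 on uMT sham arrays, which overlap. WT mice at day 7 had -1.08, -0.52 and 0.18 with CaCl2, against -1.29, -1.27 and -1.48 with sham, without overlap. Over the 4 contrasts the change was 1.20 ± 0.25 (SE; limma adjusted p = 0.000646), and 1.21 (0.000622) without the dim array. The day 42 response did not differ between genotypes by the interaction (-1.29 ± 0.69, SE; limma adjusted p = 0.774).

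Cox6a2 also rose with sham operation in WT mice at day 7. Against -3.33, -3.70 and -3.77 on WT pre arrays, it was at the day 7 sham levels just given, a change of 2.25 ± 0.49 (SE; limma adjusted p = 0.0105). With normexp correction it was 0.90 and did not pass (limma adjusted p = 0.217), and it missed the threshold without replicate 3 of WT pre (0.0557), without replicate 2 of WT sham day 7 (0.0544) and relative to the ribosomal median (0.0728). In uMT mice the same change was 1.51 (limma adjusted p = 0.101, and 0.0471 without the dim array). At day 42 the WT sham levels of Cox6a2, given above, overlapped those of WT pre, and no member passed in that comparison. Of the skeletal muscle markers 2 of 7 fell and 0 rose in WT CaCl2 at day 42, and 0 of 7 passed in WT sham at day 7. Their summed level, on the linear scale, was 22.9, 14.7 and 13.6 on WT CaCl2 day 42 arrays, against 69.9, 10.1 and 71.3 on WT sham day 42 arrays. It was 59.5, 46.5 and 44.1 on WT sham day 7 arrays, against 71.5, 67.6 and 64.0 on WT pre arrays. On replicate 1 of uMT CaCl2 day 7, where Cox6a2 read 0.68, the median log2 level of these markers was 1.26, against -2.40 and -2.45 on the other two. Of 11 markers 7 were measured, and the myosins Myh1, Myh2 and Myh4 were not among them. Without the dim array skeletal muscle markers passed in both directions. Over the 4 contrasts Acta1 (-2.44, limma adjusted p = 6.44e-06) and Atp2a1 (-0.79, 3.96e-05) then fell and Tnni2 rose (1.66, 0.000398). In uMT mice at day 42 Acta1 fell (-2.67, limma adjusted p = 0.00694) and Tnni2 rose (1.97, 0.0428). Of 8 measured cardiac and slow muscle markers 1 rose and 0 fell in CaCl2 at day 42, in uMT and in WT alike. It was Tnni3, cardiac troponin I, which changed by 0.97 (limma adjusted p = 0.0282) in uMT and 0.92 (0.0266) in WT mice, and by 0.68 (0.000381) over the 4 contrasts. Without the dim array other cardiac markers passed too, in both directions. In uMT mice at day 42 Actc1 (-2.87, limma adjusted p = 0.0216) and Myl3 (-1.58, 0.0302) fell, and in WT mice Myl2 rose (1.70, 0.0387). Over the 4 contrasts Actc1 then fell (-1.64, limma adjusted p = 0.00323) and Myl2 rose (1.16, 0.000593). Tnni3 also rose in uMT sham at day 42 relative to pre (1.20, limma adjusted p = 0.0055), where Cox6a2 did not pass. The summed level of the cardiac list was 4.42, 4.27 and 8.25 on WT CaCl2 day 42 arrays, against 17.3, 4.39 and 7.22 on WT sham day 42 arrays, which overlap. Macrophage markers were higher for 8 of 10 in WT CaCl2 at day 42 (4 without the dim array) and for 5 of 10 in WT sham at day 7 (8 without it). The part of these markers in the result was not tested.

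Ndufa4l2 rose with CaCl2 by 0.52 ± 0.19 (SE; limma adjusted p = 0.0435) over the 4 contrasts, and missed the threshold without the dim array (0.40, limma adjusted p = 0.0501). It was at 1.95, 2.32 and 1.39 on uMT CaCl2 day 42 arrays, against 1.29, -0.02 and 1.66 on uMT sham day 42 arrays, and at 2.38, 3.02 and 3.08 on WT CaCl2 day 42 arrays, against 2.32, 0.74 and 2.0 on WT sham day 42 arrays. At day 42 the WT groups did not overlap and the uMT groups did. At day 7 Ndufa4l2 hardly changed, by 0.04 in WT and -0.01 in uMT mice, and neither contrast passed. Ndufab1, the acyl carrier protein that is also a complex I subunit, had a change of 0.48 ± 0.17 (SE; limma adjusted p = 0.0383), and 0.54 (0.0121) without the dim array. That call was lost in 13 of the 24 fits that left out 1 array (adjusted p up to 0.083) and in 4 of 12 other settings (up to 0.877).

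**Figure D4:**
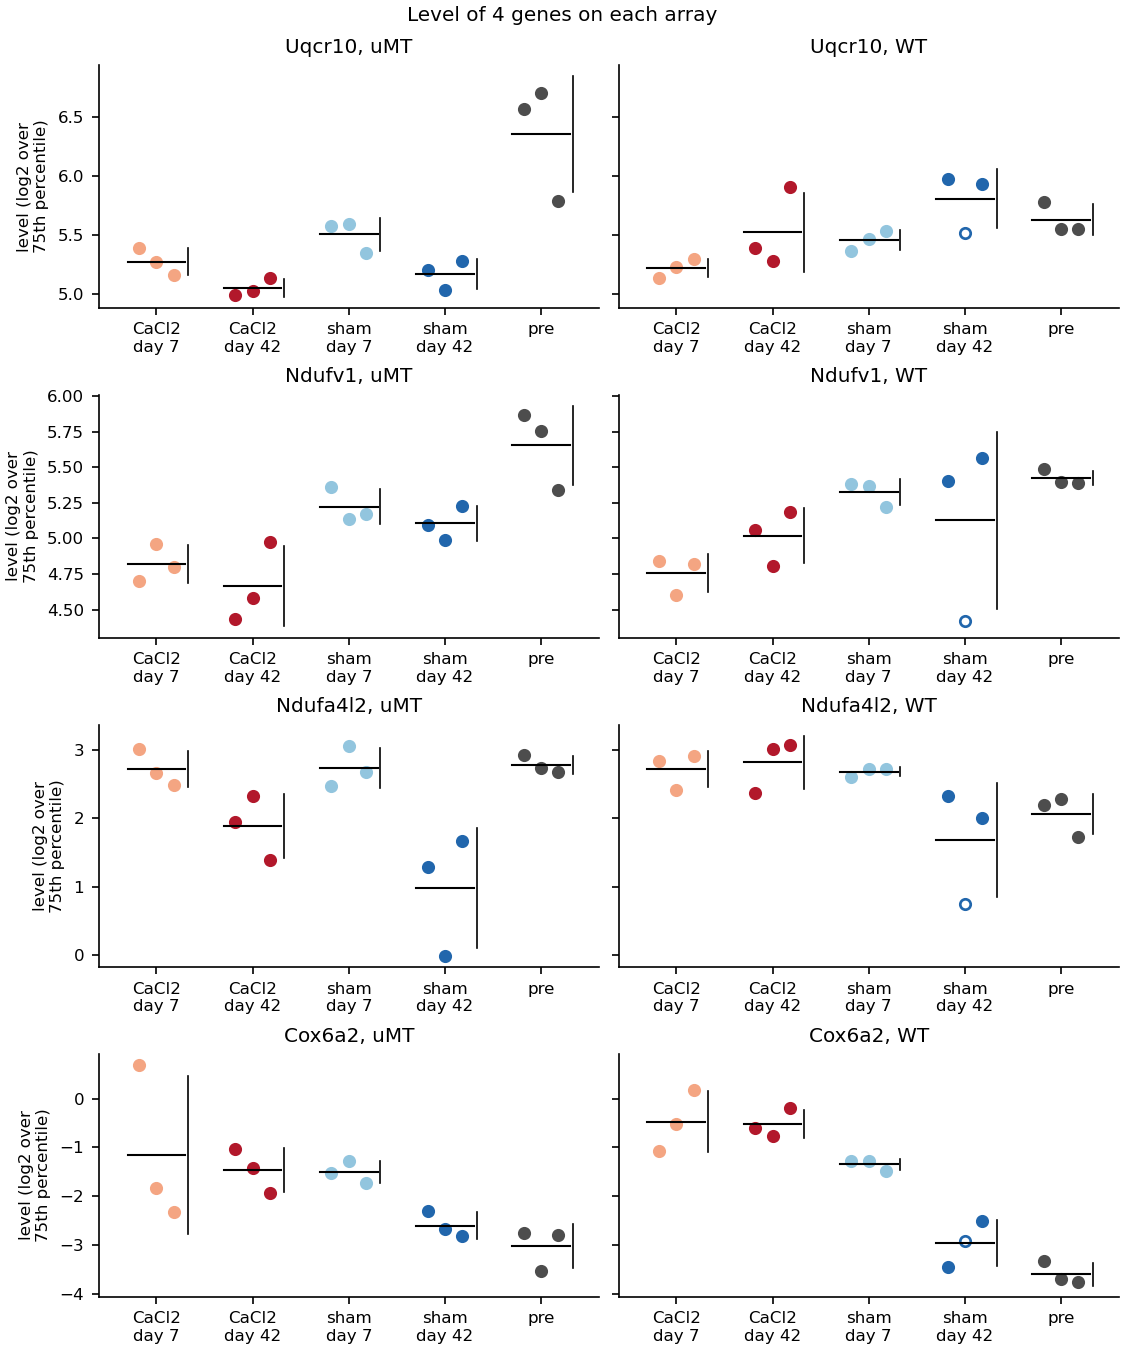
Log2 level of Uqcr10, Ndufv1, Ndufa4l2 and Cox6a2 on each array, relative to the array's 75th percentile, in uMT and WT aortas. Points are arrays, the line is the mean and the bar ± SD of 3 arrays, and the open point is the dim array; Uqcr10 is highest on uMT pre arrays, at up to 6.70, and Cox6a2 lowest on WT pre arrays, at down to -3.77.

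In uMT mice at day 42 after sham operation, where 10.1% of all genes were lower and 7.29% higher, the lists of other genes of energy supply gave different counts. Of 78 mitochondrial ribosome genes 34 fell and 0 rose (median -0.97), of 14 genes of cytochrome c and complex IV assembly 4 fell (median -0.86), and of 15 genes of the citric acid cycle 3 fell (median -0.84). Of 14 fatty acid oxidation genes 0 fell and 1 rose (median -0.36; Cpt1b, which brings fatty acids into muscle mitochondria, 1.18, limma adjusted p = 0.0152), and of 16 glycolysis genes 1 fell (median -0.17). Of 14 measured regulators of mitochondrial biogenesis, such as the coactivator family of Ppargc1a, 0 fell and 1 rose (median -0.06). Without the dim array, where 24.6% of all genes were lower, 71 of the 78 mitochondrial ribosome genes fell, 10 of 14 of complex IV assembly, 6 of 14 of fatty acid oxidation and 7 of 16 of glycolysis, and Cpt1b still rose. None of these lists was tested against all genes.

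The fall was not particular to mitochondria in these data. Of 89 cytosolic ribosomal protein genes, a list added after the data were seen, 50 fell and 1 rose, with a median of -1.1. Their median level was 6.98, 6.66 and 7.08 on uMT sham day 42 arrays, against 8.16, 8.37 and 7.26 on uMT pre arrays, so replicate 3 of pre was again the lowest of its group. Expressed relative to that ribosomal median on each array, the respiratory chain genes changed by a median of -0.01, with 1 lower and 3 higher. Of the uMT pre arrays 50.6%, 42.4% and 56.7% of probes were well above background, and of the uMT sham day 42 arrays 53.3%, 47.8% and 45.8%. Of 7 fibroblast markers 4 fell (median -1.49), of 12 contractile smooth muscle markers 0 changed by the test (median -0.27), and 2 of 10 macrophage markers rose and 1 fell. Of 7 measured brown adipocyte markers, a cell type rich in mitochondria, 2 fell and 1 rose (median -0.70). Dio2, which activates thyroid hormone, fell by 2.09 (limma adjusted p = 0.00469) and Otop1 by 1.02 (0.0435), and Cpt1b, which is on this list too, rose. Their summed level was 7.27, 12.2 and 12.4 on uMT sham day 42 arrays, against 26.4, 17.7 and 12.3 on uMT pre arrays, so the groups overlapped only at replicate 3 of pre. What part signal strength and these markers have in the result was not tested.

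With CaCl2 the same ribosomal scale moved the count the other way. Over the 4 contrasts the ribosomal protein genes had a median of 0.19 (0.06 without the dim array), with 5 of 89 higher, and relative to them 37 respiratory chain genes were lower and 1 higher, with a median of -0.32. Of the citric acid cycle genes 4 of 15 fell (median -0.27), of fatty acid oxidation genes 4 of 14 fell and 1 rose, of glycolysis genes 2 of 16 fell and 3 rose, and of mitochondrial ribosome genes 1 of 78 fell (median -0.04). All 12 contractile smooth muscle markers fell (median -1.90) and 9 of 10 macrophage markers rose (median 1.59), and 6 of 9 white adipocyte markers fell (median -1.54). Of 7 brown adipocyte markers 3 fell and 1 rose (median -0.84): Cidea, a lipid droplet protein, changed by -2.96 (limma adjusted p = 2.81e-05), Fabp3, a fatty acid carrier, by -0.998 (1.18e-05), Otop1 by -0.84 (0.000682) and Dio2 by 0.94 (0.00246). The Dio2 change came from uMT at day 42 (3.63, limma adjusted p = 3.08e-05 without the dim array). It was 0.14 in uMT at day 7, and -0.07 and 0.06 in WT at days 7 and 42. Otop1 changed by -0.83 and -2.21 in WT at days 7 and 42, and by 0.01 and -0.35 in uMT. Ucp1, the uncoupling protein that defines brown fat, and Elovl3 were not measured, as each was not well above background on at least 1 array of every group. The summed level of the brown adipocyte list was 4.96 to 6.07 on WT CaCl2 day 42 arrays, against 7.82 to 14.7 on WT sham day 42 arrays, and 5.42 to 6.56 on WT CaCl2 day 7 arrays, against 10.3 to 11.2 on WT sham day 7 arrays. In uMT mice it was 5.31 to 8.61 on CaCl2 day 42 arrays, against 7.27 to 12.4 on sham day 42 arrays, and 7.36 to 7.84 on CaCl2 day 7 arrays, against 10.3 to 11.8 on sham day 7 arrays. Only the uMT day 42 pair overlapped. In bulk tissue, fewer cells of a type and less RNA per cell cannot be told apart, and the part of these cell types in the respiratory chain genes was not tested.

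The members varied together over the 30 arrays, as a description across arrays that share group and scaling. For the 80 members that were well above background on all arrays, r with the member median had a median of 0.90, against 0.14 for all other such genes, and 0.88 against 0.14 without the dim array. The least alike were Cox4i2 (-0.49), Uqcrb (-0.33), Cox6b2 (-0.16) and Ndufab1 (-0.07). Uqcrb, a subunit of complex III, read 7.88 on the dim array and 7.64, 6.31 and 5.84 on uMT CaCl2 day 42 arrays, while most members were low there. Among other genes with a RefSeq symbol, the nearest to the member median were the mitochondrial ribosome genes Mrps14 (0.97) and Mrps28 (0.97), the predicted genes Gm5921 and Gm5786, and Rps2, a cytosolic ribosomal protein gene (0.97). Array features without a RefSeq symbol held ranks 1 to 6, above all of these, and others ranked among them. Without the dim array the nearest genes with a RefSeq symbol were others: Actr10 (0.97), Hint3 (0.96), Mrps18c (0.96), Smim26 (0.96) and Micos10 (0.96).

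Probes of one gene did not always agree. Of 30 members with several kept probes, 44 further probes could be set against the brightest one, which stands for the gene, and 27 of these correlated with it above 0.8 over the arrays and 10 below 0.5. In uMT sham day 42 relative to pre, Ndufv3 changed by -1.09 on the brightest probe but by -0.48 and 1.01 on the others. Atp5j changed by -1.29 and 0.26, and Atp5g1 by -1.04 and -0.00. Ndufb5 changed by -1.31 on the brightest probe and by -1.22, -0.06 and 0.62 on others, with a lowest correlation of -0.59. Uqcrb changed by -0.34 on the brightest and by -0.32 and -1.12 on the others. Such members are uncertain. RefSeq lists 4 pseudogene copies of Atp5k, 2 of Atp5l and 2 of Uqcrh, whose transcripts such a probe might also catch.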

How the data were processed

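Total RNA was amplified, labelled with Cy3 and hybridised to Agilent SurePrint G3 Mouse 8x60K arrays, per the labels' protocols. The deposited scanner files hold intensity, a processed signal with background subtracted by Agilent Feature Extraction 10.7.1.1, per the file headers (9.5.1.1 per the submitters' processing notes). The probe coordinates are those of mm9, per the file headers. The authors' deposited value table of the same arrays was used as an alternative. Its 30 columns correlated at 0.979 or more with their own arrays, hold nearly one set of sorted values, and have a median of 24.2. The steps that made it are not given in the sources used here.

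From the deposited intensity, log2 of the processed signal minus log2 of the array's 75th percentile was taken. Spots of a probe were averaged, 24 of 55681 probes were left out for outlier flags, and a probe was kept if well above background on all 3 arrays of 1 group or more (33228). Each gene was read from its brightest kept probe. limma 3.58.1 in R 4.3.3 fitted 1 mean per group over 30 arrays (20 residual degrees of freedom), with Benjamini-Hochberg adjustment within each of 14 comparisons, and 7 added ones, at 0.05. The number of arrays limits the precision. The fits were tested on simulated data with independent noise for each gene and array. The simulation held no slide effect and no dim array, so it does not cover those features of the real data. The arrays lay on 5 slides scanned on 2 days. Replicate numbers did not pair the arrays.

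Genes were named by rule: up to 3 each way with the smallest adjusted p and no overlap between the groups' arrays in the CaCl2 contrasts and the means (2 elsewhere), or the smallest p where none passed, together with 10 core subunits, isoform pairs and members whose probes disagree. Other names were chosen after their values were seen. The members and lists were chosen with earlier results of these data known. Alternatives were other background correction, normalization, filters, probe rules, samples in the fit, slide and replicate blocks, and leaving out each array.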

Additional observations from a re-analysis of the deposited data

Results flagged for a closer look

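The change from pre to sham day 42 differed between uMT and WT mice in 8 of the 88 genes, all more negative in uMT, by a test of the difference itself that was added after the medians were seen (limma, adjusted over all genes). It called 2.84% of all genes lower and 5.19% in either direction. The differences on the log2 scale were -1.60 for Atp5e (adjusted p = 0.0263), -1.48 for Atp5k (0.0149), -1.39 for Cox7a2l (0.0137), -1.26 for Ndufa2 (0.0444), -1.55 for Ndufa5 (0.0108), -1.43 for Ndufs6 (0.0231), -1.36 for Uqcr10 (0.0149) and -1.38 for Uqcrq (0.0185). Without the dim array these 8 remained and 75 were called, with differences such as -1.53 for Ndufa5 (adjusted p = 0.00144) and -1.63 for Cox7a2l (0.000535), where 18.4% of all genes were lower. Over 13 other settings the day 42 count ran from 0 to 76, and the median difference from -1.31 to 0.38. Leaving out 1 array gave 1 to 75 members. At day 7 the same test called 0 members and 0% of all genes. The pre arrays of each genotype enter both days. Of 3 Atp5k probes 2 are annotated on chromosome Y of mm9, and the gene has 4 pseudogene copies in RefSeq.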

How the results depend on the processing

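Counts below are members called. For uMT sham day 42 relative to pre (42) they were 20 with normexp and quantile normalization, 15 with quantile normalization, 25 with the percentile taken over probes detected on every array, 14 with the authors' value table, 27 with the compared groups only, 65 with the slide as a random block, 79 with that block and no dim array, 74 with the slide as a fixed block, 4 relative to the ribosomal median and 20 within the 1 slide that holds 2 uMT pre arrays and all uMT sham arrays. Leaving out 1 array gave 10 to 79. For uMT sham day 7 relative to pre (9) they were 5 with normexp, 2 with quantile normalization, 1 with the value table, 2 with no filter, 0 with the compared groups, 54 with the random block and no dim array, 1 relative to the ribosomal median, 0 within that slide and 0 to 53 on leaving out 1 array. For the mean of CaCl2 contrasts (7) they were 18 with normexp, 14 with quantile normalization, 14 with the value table, 4 with no filter, 4 with the compared groups, 0 with the random block, 51 with it and no dim array, 38 relative to the ribosomal median and 3 to 43 on leaving out 1 array. For WT CaCl2 at day 42 (1) they were 6 with normexp, 5 with quantile normalization, 3 with the percentile, 5 with the value table, 2 with the mean of probes, 0 with the compared groups, 0 with either slide block, 12 with the random block and no dim array, 28 relative to the ribosomal median and 1 to 13 on leaving out 1 array, where all 13 without replicate 1 of WT sham day 42 and all 12 without its replicate 3 were higher. For WT CaCl2 at day 7 (0) they were 1 with normexp, 14 with the compared groups, 11 with the random block and no dim array, 1 relative to the ribosomal median and 0 to 7. For uMT CaCl2 at day 7 (0) they were 9 with the random block and no dim array and 0 to 5, and at day 42 (0) 2 with normexp, 12 with that block, 1 relative to the ribosomal median and 0 to 5. For uMT CaCl2 day 42 relative to day 7 (0) they were 3 with that block, 1 with the fixed block and 0 to 3. For WT sham relative to pre they were 0 with normexp and 0 relative to the ribosomal median at day 7 (1), with 0 to 1 on leaving out 1 array, and 0 to 18 at day 42 (0), 13 without replicate 1 and 18 without replicate 3 of WT sham. For uMT relative to WT over conditions (0) they were 1 with normexp, 44 with the random block and no dim array, and 0 to 24. Relative to the ribosomal median 11 of the 42 members called for uMT sham day 42 relative to pre turned positive (0.05 to 0.41), none of them called there. Under the other settings no member called in a comparison with all arrays turned its sign. The causes were not tested. The correlation within slides was 0.782, and -0.0687 without the dim array. No fixed slide block could be fitted for uMT CaCl2 relative to sham, the mean of CaCl2 contrasts or the genotype difference in CaCl2 response. Nor could it be for uMT relative to WT after CaCl2 or over the mean of conditions. It could be fitted for the genotype difference in sham relative to pre, where the 8 members called at day 42 kept their sign. Same-numbered arrays did not deviate together (median correlation -0.04, and 5 of 30 arrays correlated best with their own number), and with the replicate block 39 members were called for uMT sham day 42 relative to pre. Signal limits Cox6a2, which was well above background on 27 of 30 arrays.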
